A study of Mus musculus with 13 samples.

Results

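Collagen is made in the endoplasmic reticulum, where prolyl 4-hydroxylase (the catalytic alpha subunits P4ha1 and P4ha2 with the beta subunit P4hb) hydroxylates proline so that the triple helix is stable, and the lysyl hydroxylases Plod1, Plod2 and Plod3 hydroxylate lysine. The chaperone Hsp47, encoded by Serpinh1, binds the folded helix and accompanies it towards the Golgi. Outside the cell the copper enzymes Lox, Loxl1 and Loxl2 oxidise lysine side chains, which then crosslink collagen and elastin. In growing retinal vessels the main collagens lie in the basement membrane that endothelial cells and pericytes lay down. These 10 genes were followed in mouse retina. They were taken by their RefSeq identifier or by the symbol in the probe description, which gave 12 probes of the 41174 on the array: 2 each for P4ha1 and Plod3, and 1 for each of the other genes.

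RNA was compared between 6 tip samples, 4 stalk samples and 3 samples of nonvascular retina, which the labels call the control. Tip cells lead a vessel sprout and stalk cells trail behind them. Each sample was hybridised in Cy5 (red) on its own Agilent array together with Universal Mouse Reference RNA, a commercial pool, in Cy3 (green), without a dye swap. The labels give no strain, genotype, age, way of collecting the cells or animal of origin, so p-values measure only the spread between these samples, which may be partly technical. Values are log2 ratios of sample over common reference, so a negative value means less signal than in the pool. Levels of different probes cannot be set against each other, and only differences of 1 probe between groups are read.

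All 12 probes were well above background in red on all 13 arrays. The mean over 10 endothelial markers was 2.53 to 2.87 in tip and 2.91 to 3.09 in stalk, against 0.45 to 0.74 in nonvascular retina. Of these markers, 9 were called higher in tip than in nonvascular retina (11.1% of all genes). The exception was Tek (−0.02, adjusted p = 0.917). Tip and stalk were told apart by a list of 9 tip cell markers, of which 7 were called higher in tip (1.47% of all genes). The marker lists were chosen with earlier results of these data known, so they are no independent check of the labels. Both kinds of vessel sample also held other cells, since 13 pericyte and smooth muscle markers averaged 0.57 to 0.83 in tip, 1.22 to 1.40 in stalk and −0.91 to −0.79 in nonvascular retina. The means over glial markers were higher in the vessel samples too, though not every marker was. The 7 astrocyte markers averaged 1.92 to 2.22 in tip and 1.98 to 2.27 in stalk, against 0.51 to 1.79 in nonvascular retina. Compared with nonvascular retina, 4 were called higher in tip, 3 higher in stalk and 0 lower in either. Of all genes, 11.1% were called higher and 16.8% lower in tip, and 11.3% and 18.6% in stalk. The same shares stand beside the Mueller glia counts below. The larger rises in tip were in S100b, Pdgfra, Slc1a3 and Aldh1l1. Gfap was at −0.04 to 0.35 in tip, against −0.08 to 0.05 in nonvascular retina. Aqp4 was at 0.17 to 0.26 against 0.27 to 0.38, and Pax2 at −0.29 to 0.04 against −0.20 to −0.17. The 7 Mueller glia markers averaged 2.56 to 3.00 in tip and 2.78 to 2.99 in stalk, against 1.1 to 2.55 in nonvascular retina, with 5 called higher and 1 lower in tip, and 4 higher and 0 lower in stalk. The lower one was Apoe (−0.78, limma adjusted p = 0.0154), and Glul was not called in tip (−0.25, adjusted p = 0.228). Slc1a3 is on both glial lists. The part of pericytes and glia in the differences from nonvascular retina was not tested. Of the nonvascular arrays, replicate 3 stood apart: its Mueller glia markers averaged 2.55 (replicates 1 and 2: 1.44 and 1.1) and its astrocyte markers 1.79 (0.51 and 0.56). In such mixed samples fewer cells of a type and less RNA per cell cannot be told apart.

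The 3 comparisons set tip against stalk, tip against nonvascular retina, and stalk against nonvascular retina. Each difference (first group minus second) has the standard error (SE) from a limma fit over all 32030 genes tested. A gene was called when its p-value, adjusted by the Benjamini-Hochberg method over all these genes, was under 0.05. Between tip and stalk, 1 of the 10 genes was called higher and 0 lower, where 1.47% of all genes were called higher and 1.32% lower (2.79% in all). The median difference of the 10 genes was 0.08, against 0 over all genes, and 4 of them had an unadjusted p under 0.05. Against nonvascular retina the vessel samples were higher more often. Tip samples had 7 of the 10 genes called higher and 0 lower (11.1% and 16.8% of all genes, 28% in all), and stalk samples had 4 higher and 0 lower (11.3% and 18.6%, 29.8% in all). The medians of the 10 genes were 0.70 for tip and 0.34 for stalk over nonvascular retina, against −0.01 and 0 over all genes. Both comparisons share the 3 nonvascular arrays. Arrays of the 2 groups did not overlap at all for 1 of the 10 genes between tip and stalk (5.48% of all genes), for 6 between tip and nonvascular retina (27.8%) and for 6 between stalk and nonvascular retina (37.3%).

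**Figure D1:**
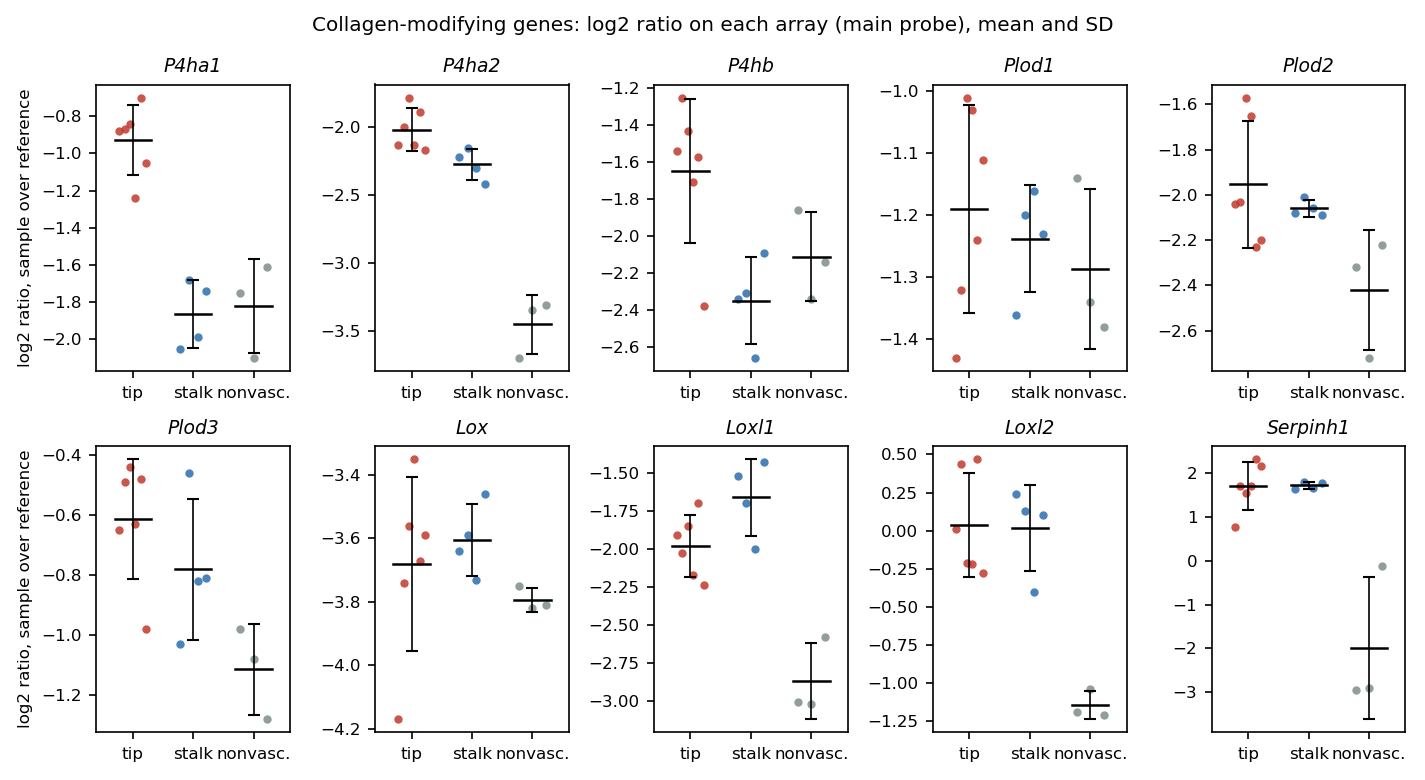
Log2 ratio of sample over reference on each array (vertical axes, with a scale of their own for each gene) for the main probe of the 10 genes, in tip (red), stalk (blue) and nonvascular retina (grey). Horizontal lines are group means and bars are SDs (n = 6, 4 and 3). Only P4ha1 has all 6 tip arrays above all 4 stalk arrays, and P4ha2, Loxl1, Loxl2 and Serpinh1 have every tip and stalk array above every nonvascular array.

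P4ha1, a catalytic subunit that is limiting for the prolyl 4-hydroxylase tetramer in many cells, was the member that set tip apart from stalk. On its brighter probe the log2 ratio in tip ran from −1.24 to −0.70 with a median of −0.88, against −2.05, −1.68, −1.99 and −1.74 in the stalk samples and −1.75, −2.10 and −1.61 in the nonvascular samples. Every tip array lay above every array of both other groups, while stalk and nonvascular arrays overlapped. The means were −0.93 ± 0.19 in tip (SD, n = 6), −1.86 ± 0.19 in stalk (n = 4) and −1.82 ± 0.26 in nonvascular retina (n = 3). The gene was thus 1.91-fold higher in tip than in stalk (0.93 ± 0.12 SE, limma adjusted p = 0.00154) and 1.85-fold higher in tip than in nonvascular retina (0.89 ± 0.13, adjusted p = 0.000203). Stalk and nonvascular retina differed by −0.04 ± 0.14 (adjusted p = 0.868). On the pericyte list 8 of 13 markers were called lower in tip than in stalk and 0 higher, and 2 of 10 endothelial markers were called lower. Of all genes, 1.32% were called lower and 1.47% higher. Whether those cell shares have a part in the difference in P4ha1 was not tested.

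The second P4ha1 probe, annotated to the same RefSeq transcript, did not show this difference. Its red signal over background was 84 to 285 intensity units in tip, 106 to 128 in stalk and 156 to 299 in nonvascular retina, where the brighter probe had 527 to 2011, 290 to 471 and 425 to 809. On this dimmer probe the log2 ratio in tip ran from −2.71 to −1.97 with a median of −2.13, against −2.48, −2.53, −2.48 and −2.56 in stalk. Of the 6 tip arrays, 4 lay above all stalk arrays and replicates 1 and 6 (−2.71 and −2.53) did not. Tip and stalk differed by 0.26 ± 0.13 (adjusted p = 0.326 in a fit over 39338 probes), and tip and nonvascular retina by 0.21 ± 0.14 (adjusted p = 0.317). The call for P4ha1 therefore rests on 1 of its 2 probes.

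P4ha2, the other catalytic subunit, was higher in both kinds of vessel sample than in nonvascular retina. Its log2 ratio in tip was −2.17 to −1.78 with a median of −2.06, against −2.22, −2.15, −2.30 and −2.42 in stalk and −3.70, −3.35 and −3.31 in nonvascular retina. The vessel arrays overlapped with each other and lay clear of all nonvascular arrays. P4ha2 was 2.70-fold higher in tip than in nonvascular retina (1.43 ± 0.11, adjusted p = 5.29e-07) and 2.26-fold higher in stalk than in nonvascular retina (1.18 ± 0.12, adjusted p = 5.24e-06). The difference of 0.26 ± 0.10 between tip and stalk did not pass the test (adjusted p = 0.188).

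P4hb encodes the beta subunit, which is also protein disulfide isomerase and works outside collagen synthesis too. In tip its log2 ratio was −2.38 to −1.25 with a median of −1.56, against −2.34, −2.31, −2.66 and −2.09 in stalk and −1.86, −2.34 and −2.14 in nonvascular retina. Of the tip arrays, 5 lay above all stalk and nonvascular arrays (−1.71 to −1.25), and tip replicate 6 lay among the stalk arrays at −2.38. With all arrays the tip minus stalk difference was 0.70 ± 0.19 (1.63-fold) and was not called (adjusted p = 0.0699). Leaving out tip replicate 6 gave 0.85 with an adjusted p of 0.00462. Against nonvascular retina, tip differed by 0.47 ± 0.21 (adjusted p = 0.123) and stalk by −0.24 ± 0.22 (adjusted p = 0.49). The tip minus nonvascular difference was called without tip replicate 6 (0.61, adjusted p = 0.00602), once the model held array brightness (0.56, adjusted p = 0.0356) and with the replicate number as a block (0.62, adjusted p = 0.042).

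A call in 1 subunit and none in another does not show that they differ, so the shift between tip and stalk was compared within 9 pairs of genes of 1 family, on the difference of their log2 ratios on the same array. The size of such a difference has no meaning across probes, but its shift between groups has. P4ha1 minus P4ha2 was 0.89 to 1.25 on the tip arrays, against 0.16, 0.48, 0.31 and 0.69 on the stalk arrays, without overlap. On the nonvascular arrays, which were not part of this test, the difference was 1.95, 1.24 and 1.70, so a high value was not particular to tip. The means were 1.09 ± 0.14 in tip (SD, n = 6) and 0.41 ± 0.23 in stalk (n = 4), a shift of 0.68 (two-sided exact permutation test over 210 splits, p = 0.00476, adjusted over the 9 pairs p = 0.0429). The smallest p that these 10 arrays can give is 0.0048, and with 1 array left out, which allows fewer splits, the adjusted p was 0.0357 to 0.107. There a pair that stands alone can reach no adjusted p below 0.0714 (a tip array left out) or 0.107 (a stalk array left out). Losing the call in those settings therefore says nothing about the arrays. With the dimmer P4ha1 probe the shift was 0.00 (exact permutation test, adjusted p = 0.99), and with the red channel alone it was 0.43 (adjusted p = 0.3). None of the other 8 pairs passed the exact permutation test (adjusted p from 0.243 to 0.729), among them P4ha1 minus P4hb with a shift of 0.23.

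**Figure D2:**
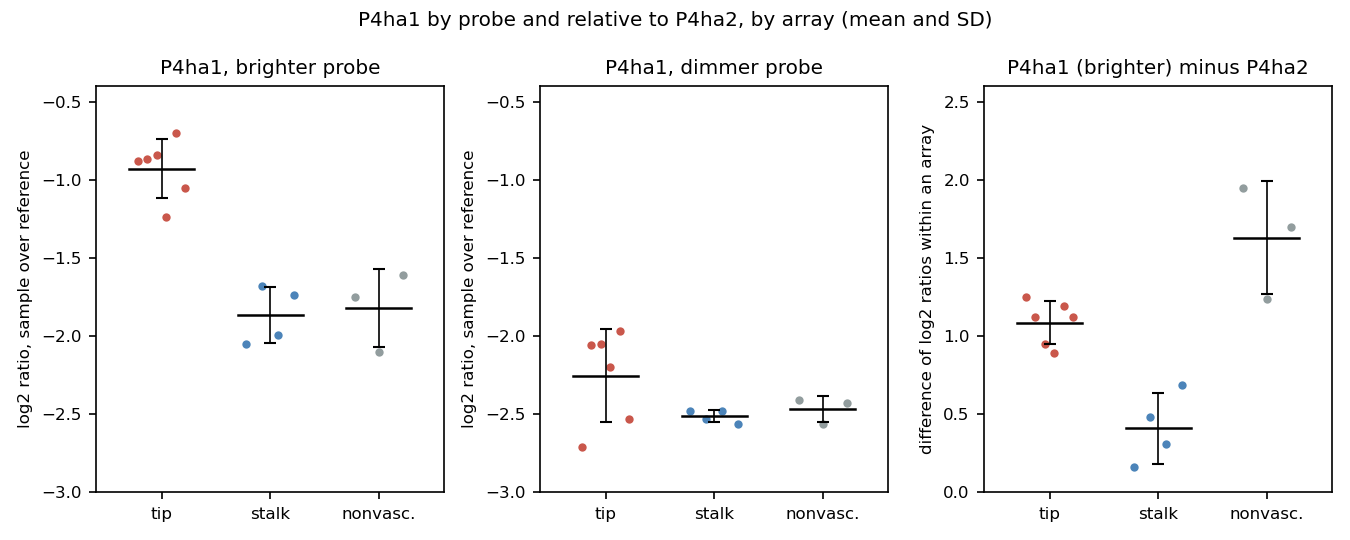
Log2 ratios of the brighter (left) and dimmer (middle) P4ha1 probe and the P4ha1 minus P4ha2 difference on the same array (right), for tip (red), stalk (blue) and nonvascular arrays (grey), with means and SDs (n = 6, 4 and 3). Tip lies above stalk without overlap on the left and on the right, and overlaps with it in the middle, where the tip minus stalk difference is 0.26.

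The promoters of the 3 prolyl 4-hydroxylase subunits are shown because the P4ha genes are textbook targets of hypoxia-inducible factor (HIF), the transcription factor of low oxygen, whose binding sites carry ACGTG or GCGTG as their core. The sequences are the 250 bases before the RefSeq start site (build GRCm38.p6), 5′ to 3′ on the strand of the gene, with each ACGTG or GCGTG, on either strand, in capitals. Matches on the opposite strand read CACGT or CACGC.
P4ha1, chr10:59323046-59323295, plus strand: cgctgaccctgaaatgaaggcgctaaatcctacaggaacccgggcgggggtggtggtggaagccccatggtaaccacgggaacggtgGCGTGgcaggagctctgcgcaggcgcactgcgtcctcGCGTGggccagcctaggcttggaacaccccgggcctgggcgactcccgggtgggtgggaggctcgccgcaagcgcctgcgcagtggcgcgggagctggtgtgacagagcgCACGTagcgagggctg
P4ha2, chr11:54100674-54100923, plus strand: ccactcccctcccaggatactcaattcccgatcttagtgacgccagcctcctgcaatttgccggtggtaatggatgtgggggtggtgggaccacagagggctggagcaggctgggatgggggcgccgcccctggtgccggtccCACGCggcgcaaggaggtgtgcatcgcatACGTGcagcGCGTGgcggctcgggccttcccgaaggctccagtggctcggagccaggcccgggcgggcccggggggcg
P4hb, chr11:120573254-120573503, minus strand: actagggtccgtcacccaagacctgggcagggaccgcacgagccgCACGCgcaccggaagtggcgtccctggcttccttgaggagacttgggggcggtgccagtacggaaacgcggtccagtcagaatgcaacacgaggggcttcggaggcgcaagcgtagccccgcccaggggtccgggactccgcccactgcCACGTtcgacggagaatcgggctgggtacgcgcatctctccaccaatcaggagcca

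P4ha1 held 3 such matches, which begin 163, 126 and 16 bases before the start. P4ha2 also held 3, which begin 107, 78 and 69 bases before the start, and P4hb held 2, at 205 and 56 bases. Of the 10 genes, 6 were searched in the RefSeq promoter table (the 3 shown and Plod1, Plod3 and Serpinh1). All 6 held at least 1 match, where 38.6% of 32851 promoters did. Plod2, Loxl1 and Loxl2 had no entry. Lox was left out because of its chromosome, so its matches were not counted, while the shares over all promoters were not limited by chromosome. ACGTG was found in 5 of the 6 (16.6% of all promoters) and GCGTG in 5 (28.2%). These promoters were rich in G and C (55.6% to 70.0%, against a median of 52.4%), and both motifs are themselves GC-rich. Of the 10217 promoters with a GC share in that range, 56.6% held at least 1 match. The pair was picked after 10 motifs had been looked for on both strands, and GGGCGG was as frequent among the genes (5 of 6, 32.7% of all promoters). Of the others, CCACG, which overlaps ACGTG in part, was found in 4 (28.3%), CCAAT in 2 (33.8%), and TTCNNGAA and TATAAA in 1 each (7.2% and 12.4%). GAANNTTC, the full heat shock element with a further block added to it, and TGACGTGG were in none of these windows (6.7%, 0.5% and 0.6%). A match is a run of letters and not a shown binding site.

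Among the lysyl hydroxylases no gene was called between tip and stalk. Plod1, which hydroxylates lysine within the helix, did not pass any of the 3 tests: its log2 ratio was −1.43 to −1.01 in tip (median −1.18), against −1.36, −1.20, −1.16 and −1.23 in stalk and −1.14, −1.34 and −1.38 in nonvascular retina. All 3 groups overlapped, and the differences were 0.05 ± 0.09 for tip minus stalk (adjusted p = 0.812), 0.10 ± 0.09 for tip minus nonvascular (adjusted p = 0.504) and 0.05 ± 0.10 for stalk minus nonvascular (adjusted p = 0.773).

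Plod2 acts on the telopeptides at the ends of the collagen chains and so favours stable crosslinks. Its log2 ratio was −2.23 to −1.57 in tip (median −2.04), against −2.08, −2.01, −2.06 and −2.09 in stalk and −2.32, −2.72 and −2.22 in nonvascular retina. The stalk arrays lay close together, and the tip arrays spread to both sides of them, with replicates 3 and 4 highest (−1.57 and −1.65). Plod2 was called higher in tip than in nonvascular retina (0.47 ± 0.15, 1.38-fold, adjusted p = 0.0346), and 9 of 24 alternative settings ended this call (adjusted p from 0.00477 to 0.202 over all of them), among them leaving out nonvascular replicate 1 or 2 or tip replicate 3 or 4. Stalk minus nonvascular was 0.36 ± 0.16 (adjusted p = 0.127), or 0.65 and called once the model held array brightness (adjusted p = 0.0114), and tip minus stalk 0.11 ± 0.14 (adjusted p = 0.725).

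Plod3 also transfers glucose to galactosylhydroxylysine, a step needed for type IV collagen. On its brighter probe the log2 ratio was −0.98 to −0.44 in tip (median −0.56), against −1.03, −0.46, −0.82 and −0.81 in stalk and −0.98, −1.08 and −1.28 in nonvascular retina. The lowest tip array, replicate 6, was at the level of the highest nonvascular array. Tip was higher than nonvascular retina by 0.50 ± 0.13 (1.42-fold, adjusted p = 0.0125), a call that was lost without nonvascular replicate 3 (0.42, adjusted p = 0.0667) and with median centring in place of loess (0.31, adjusted p = 0.275). Its dimmer probe gave 0.16 ± 0.11 (adjusted p = 0.345 over all probes). Stalk minus nonvascular was 0.33 ± 0.14 (adjusted p = 0.108), or 0.56 and called from red signals without green (adjusted p = 0.00679), and tip minus stalk 0.17 ± 0.12 (adjusted p = 0.509).

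Of the lysyl oxidases, Lox, the founding enzyme of the family, did not pass the test in any comparison: its log2 ratio was −4.17 to −3.35 in tip (median −3.63), against −3.64, −3.59, −3.73 and −3.46 in stalk and −3.75, −3.82 and −3.81 in nonvascular retina. Every stalk array was above every nonvascular array, but by so little that stalk minus nonvascular was 0.19 ± 0.14 (adjusted p = 0.374). Tip minus stalk was −0.08 ± 0.12 (adjusted p = 0.791) and tip minus nonvascular 0.11 ± 0.13 (adjusted p = 0.595).

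Loxl1, known for its part in elastic fibres, was higher in vessel samples. Its log2 ratio was −2.24 to −1.70 in tip (median −1.97), against −1.52, −1.70, −2.00 and −1.43 in stalk and −3.01, −3.02 and −2.58 in nonvascular retina. Tip and stalk arrays overlapped, and all of them were above the nonvascular arrays. The gene was 1.85-fold higher in tip (0.89 ± 0.15, adjusted p = 0.000484) and 2.31-fold higher in stalk (1.21 ± 0.16, adjusted p = 6.92e-05) than in nonvascular retina. With the red channel alone the tip call was lost (0.63, adjusted p = 0.0665). Tip minus stalk was −0.32 ± 0.14 (adjusted p = 0.237), the lowest of the 10 genes.

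Loxl2, which crosslinks the type IV collagen of basement membranes, was higher in both vessel groups as well. Its log2 ratio was −0.28 to 0.47 in tip (median −0.10), against 0.24, 0.13, −0.40 and 0.10 in stalk and −1.19, −1.04 and −1.21 in nonvascular retina. Tip and stalk covered the same range, and the 3 nonvascular arrays lay together below it. Loxl2 was 2.27-fold higher in tip (1.19 ± 0.19, adjusted p = 0.000299) and 2.24-fold higher in stalk (1.17 ± 0.20, adjusted p = 0.000601) than in nonvascular retina, while tip minus stalk was 0.02 ± 0.17 (adjusted p = 0.969). The spot was dim in nonvascular retina, at 48, 30 and 36 intensity units over background against 80 to 410 in tip and 75 to 194 in stalk. The background correction adds an offset of 50 units, which is more than those signals and draws the ratios together. The scanner's own log ratios, without that offset, gave 3.04 for tip (adjusted p = 2.83e-05) and 3.07 for stalk (adjusted p = 4.62e-05) over nonvascular retina. The direction and the calls were the same, and the size of the fold depends on the correction.

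Serpinh1, the collagen chaperone gene, had the largest difference of the 10 genes from nonvascular retina. Its red signal over background was 63794 to 65239 units in tip and 65209, 64931, 65226 and 65226 in stalk, against 6221, 3466 and 33707 in nonvascular retina. The spot was saturated on 5 of 6 tip arrays and 3 of 4 stalk arrays, and on 0 of 3 nonvascular arrays, so the vessel signals stand at the ceiling of the scanner. The log2 ratio was 0.76 to 2.32 in tip (median 1.70), against 1.64, 1.80, 1.67 and 1.77 in stalk and −2.95, −2.91 and −0.11 in nonvascular retina. All vessel arrays were above all nonvascular arrays, of which replicate 3 was far above the other 2. Tip exceeded nonvascular retina by 3.68 ± 0.52 (12.9-fold, adjusted p = 0.000133) and stalk exceeded it by 3.71 ± 0.57 (13.1-fold, adjusted p = 0.000226). Because of the ceiling the true folds may be larger. Without nonvascular replicate 3 the differences were 4.62 (adjusted p = 3.29e-07) and 4.65 (adjusted p = 4.85e-07). Tip minus stalk was −0.02 ± 0.48 (adjusted p = 0.988), and with both groups at the ceiling their order was not measurable.

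Nonvascular replicate 3, in which Serpinh1 was high, also had the highest glial marker levels of its group. Its endothelial markers averaged 0.74 (0.45 and 0.54 on the other 2 arrays) and its pericyte markers −0.83 (−0.91 and −0.79). Single vessel genes were far higher on it than on replicates 1 and 2. Kdr was at 4.20 (2.92 and 2.97), Angpt2 at 1.38 (−0.21 and −0.46) and Col18a1 at 0.89 (−1.90 and −1.86). Other endothelial markers were not, such as Cldn5 at 0.48 (0.26 and 0.79) and Tek at 0.19 (0.23 and 0.20). Fkbp10, another chaperone of collagen folding, was high on the same array (−1.70, against −3.55 and −3.33 on replicates 1 and 2). So was Slc2a1, the glucose carrier of barrier endothelium and of glia (−0.91, against −2.63 and −3.43). The part of glial or vessel RNA in the Serpinh1 levels was not tested.

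**Figure D3:**
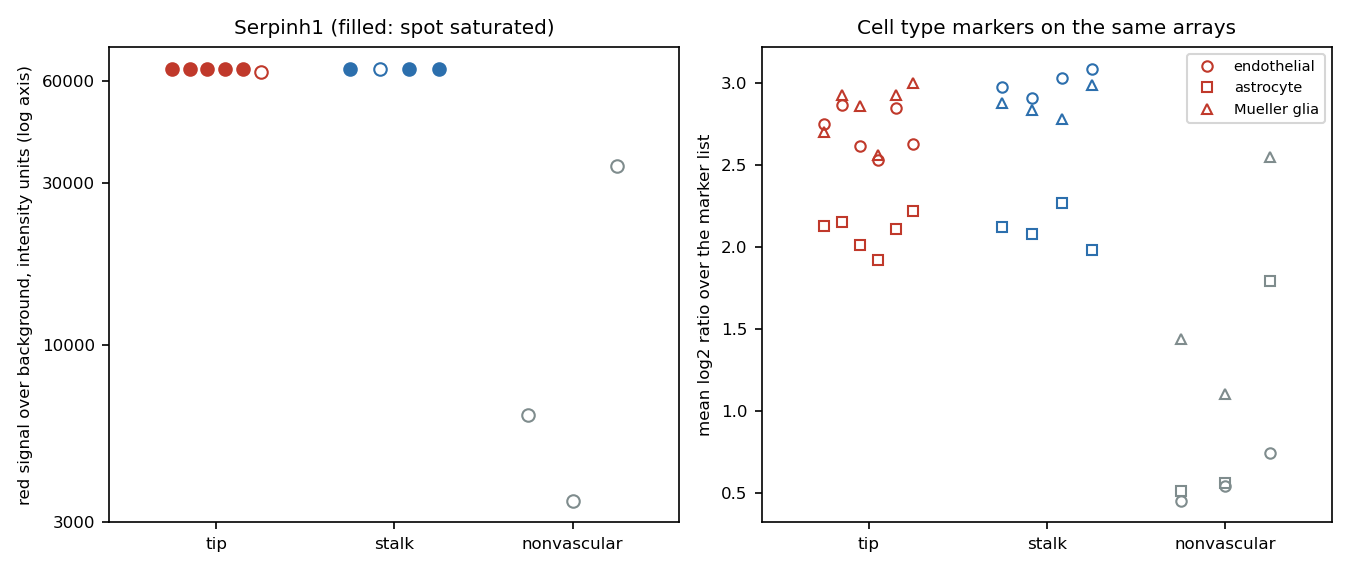
Left, red signal of the Serpinh1 spot over background on each array (log axis, intensity units), filled where the spot was saturated, in tip (red), stalk (blue) and nonvascular retina (grey). Right, mean log2 ratio over the endothelial, astrocyte and Mueller glia marker lists on the same arrays in the same order; nonvascular replicate 3, the rightmost point, is highest of its group for Serpinh1 (33707) and for both glial lists (1.79 and 2.55).

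**Figure D4:**
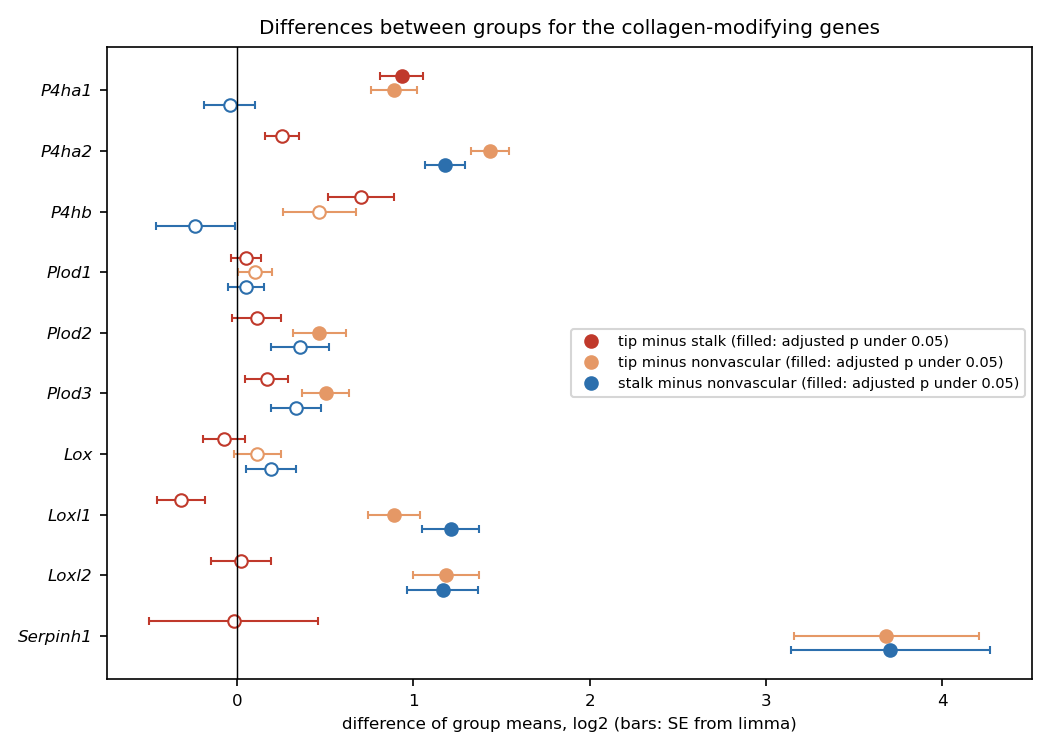
Differences of group means (log2, horizontal axis) for the 10 genes, with SEs from limma as bars; filled points had an adjusted p under 0.05. Tip minus stalk (dark red) is filled for P4ha1 alone, while tip minus nonvascular retina (orange) is filled for 7 genes and stalk minus nonvascular retina (blue) for 4.

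Of 13 other genes that modify and fold collagen, 1 was called higher in tip than in stalk and 0 lower, 9 higher and 0 lower in tip than in nonvascular retina, and 4 higher and 0 lower in stalk than in nonvascular retina, where 1.47%, 11.1% and 11.3% of all genes were called higher. The gene called between tip and stalk was Fkbp14, a prolyl isomerase of the endoplasmic reticulum (tip −0.16 ± 0.24, stalk −0.90 ± 0.22, difference 0.73 ± 0.14, limma adjusted p = 0.0192), and 6 of 24 alternatives ended that call. Fkbp10 was 11.3-fold higher in tip and 13.4-fold higher in stalk than in nonvascular retina (3.50 ± 0.30 and 3.75 ± 0.32). Crtap, which forms the prolyl 3-hydroxylase complex of the fibrillar collagens, was higher by 0.85 ± 0.09 in tip and by 0.70 ± 0.10 in stalk. P4ha3, the third alpha subunit, was not called in any comparison (tip minus stalk 0.05 ± 0.06, adjusted p = 0.692). Neither were the remaining lysyl oxidases Loxl3 and Loxl4 (tip minus stalk −0.06 and −0.01, adjusted p = 0.893 and 0.919).

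Export and processing of procollagen gave 1 of 13 tested genes higher in tip than in stalk and 0 lower (1.47% and 1.32% of all genes). It was Kdelr3, a receptor that retrieves proteins to the endoplasmic reticulum (0.59 ± 0.13, adjusted p = 0.0338, lost in 13 of 24 alternatives). Over nonvascular retina, 8 were higher and 1 lower in tip (11.1% and 16.8% of all genes), and 5 higher and 1 lower in stalk (11.3% and 18.6%). Sparc, a collagen-binding matricellular protein, led with 7.06-fold in tip and 7.90-fold in stalk. Bmp1, the protease that trims procollagen and activates Lox, was 2.92-fold higher in tip and 2.94-fold higher in stalk, and Pcolce, which enhances that trimming, 2.31-fold in tip and 3.04-fold in stalk.

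Of the collagens themselves, 11 were basement membrane and network collagens, of which 6 were higher and 0 lower in tip, and 5 higher and 1 lower in stalk, than in nonvascular retina. Beside these and the collagen counts below stand the shares over all genes: 11.1% higher and 16.8% lower in tip, and 11.3% and 18.6% in stalk. Col4a1 was 15.2-fold higher in tip and 13.5-fold higher in stalk, and Col4a2 6.10-fold and 5.72-fold. Between tip and stalk, Col4a1 differed by 0.18 (adjusted p = 0.567) and Col4a2 by 0.09 (adjusted p = 0.713), and the 1 called gene was Col15a1 (0.49 ± 0.11, adjusted p = 0.0299, lost in 14 of 24 alternatives). Of 10 fibrillar collagens, 6 were higher and 1 lower in tip, and 5 higher and 1 lower in stalk, than in nonvascular retina, with Col5a3 at 4.55-fold in tip and 6.13-fold in stalk. Col2a1 was the 1 fibrillar gene called higher in tip than in stalk (1.14 ± 0.27, adjusted p = 0.0448), a call lost in 16 of 24 alternatives. Of the 14 other collagens tested, 2 were higher and 6 lower in tip and 1 higher and 5 lower in stalk than in nonvascular retina. Col26a1 and Col6a1 fell by 1.81 and 0.96 on the log2 scale in tip.

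Of 8 fibroblast markers, 0 were called between tip and stalk (2.79% of all genes). Against nonvascular retina, 3 were called higher and 1 lower in tip (11.1% and 16.8% of all genes), and 4 higher and 1 lower in stalk (11.3% and 18.6%). The 3 higher in tip were Col1a1 (1.61, adjusted p = 0.000552), Postn (0.76, adjusted p = 0.00306) and Pdgfra (3.07, adjusted p = 0.000373), the last of which is also a marker of retinal astrocytes. The lower one was Thy1, which is also a marker of ganglion cells and was saturated on all 3 nonvascular arrays; it was at least 6.70-fold lower in tip (adjusted p = 0.00055) and at least 14.4-fold lower in stalk (adjusted p = 6.19e-05). Dcn and Lum, matrix proteoglycans of fibroblasts, differed by 0.22 and 0.00 (adjusted p = 0.531 and 0.985).

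Elastic fibre genes were higher than in nonvascular retina in 13 of 17 cases in tip (1 lower) and 10 of 17 in stalk (1 lower). Of all genes, 11.1% were higher and 16.8% lower in tip, and 11.3% and 18.6% in stalk. Eln, the gene of the elastin that Loxl1 crosslinks, was not among the higher ones. Its log2 ratio was 0.15 to 0.31 in tip and 0.15 to 0.24 in stalk, against 0.34, 0.27 and 0.37 in nonvascular retina. Between tip and stalk 0 of the 17 genes were higher and 3 lower (1.47% and 1.32% of all genes). Fbln5, which links Loxl1 to elastin, had the largest fall: its log2 ratio averaged −0.66 ± 0.37 in tip and 0.68 ± 0.42 in stalk (difference −1.34 ± 0.21, adjusted p = 0.00461). Fbln1 fell by 0.95 ± 0.17 (adjusted p = 0.0131) and Ltbp4 by 0.30 ± 0.06 (adjusted p = 0.0207, lost in 7 of 24 alternatives). With array brightness in the model the calls of Fbln5 and Fbln1 were lost as well (adjusted p = 0.0567 and 0.149). The pericyte list moved the same way, with 8 of 13 markers lower in tip, and its part in these falls was not tested.

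**Figure D5:**
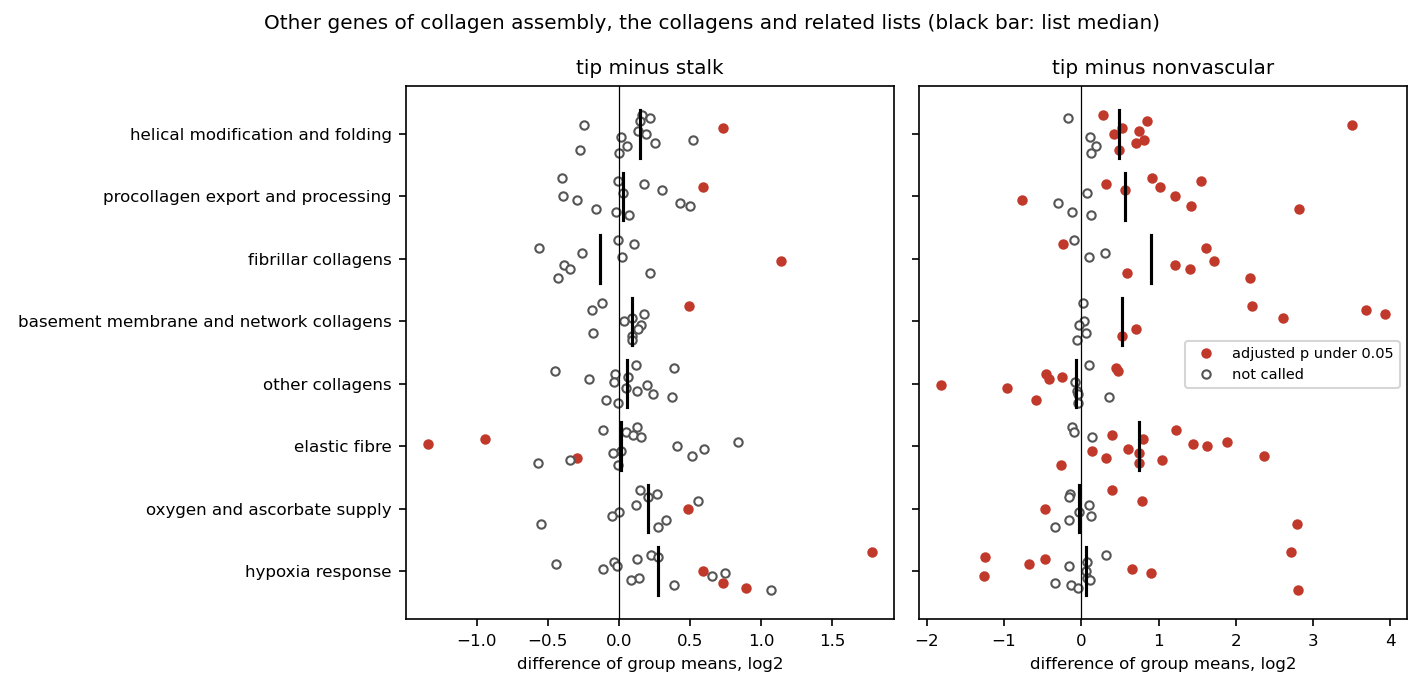
Differences of group means (log2, horizontal axes) for each tested gene of 8 lists around collagen assembly, tip minus stalk on the left and tip minus nonvascular retina on the right; red points had an adjusted p under 0.05, and black bars are list medians. Between tip and stalk few genes are red (at most 4 in a list), while over nonvascular retina 9 of 13 folding genes and 13 of 17 elastic fibre genes are red on the higher side.

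Prolyl and lysyl hydroxylases need oxygen and ascorbate, and the oxygen sensors of the HIF pathway belong to the same enzyme class. Of 11 genes of oxygen sensing and ascorbate supply, 1 was called higher in tip than in stalk and 0 lower (1.47% and 1.32% of all genes). This was Hif1a (0.49 ± 0.12, adjusted p = 0.0443), which was lost in 17 of 24 alternatives and was lower in tip than in nonvascular retina (−0.47 ± 0.13, adjusted p = 0.0127). Of 17 genes of the hypoxia response, 4 were called higher in tip than in stalk and 0 lower. Tpi1 (0.89 ± 0.10, adjusted p = 0.000617) and Pgk1 (0.73 ± 0.11, adjusted p = 0.00568), enzymes of glycolysis, and the vasoactive peptide gene Adm (1.78 ± 0.28, adjusted p = 0.00603) were among them. The fourth was Hk2 (0.59 ± 0.14, adjusted p = 0.0391), lost in 14 of 24 alternatives. Median centring ended the calls of Tpi1 and Pgk1 (adjusted p = 0.0903 and 0.339), and array brightness in the model ended that of Adm (adjusted p = 0.0674). In all, the call of Tpi1 was lost in 1 of 24 alternatives, and those of Pgk1 and Adm in 2 of 24 each. The median of the list was 0.27, against 0 over all genes. Over nonvascular retina, 4 genes of the list were called higher and 4 lower in tip, and 2 higher and 7 lower in stalk. Of all genes, 11.1% were higher and 16.8% lower in tip, and 11.3% and 18.6% in stalk. Tpi1 and Pgk1 were lower in stalk than in nonvascular retina (−0.93 ± 0.12 and −1.07 ± 0.14).

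The genes whose pattern was most like that of P4ha1 were sought among 14892 genes with a symbol that were well above background on all 13 arrays, by the root mean square difference after each gene was centred on its own mean. The median over these genes was 0.524. Fkbp14 was nearest at 0.1920, followed by Disp1, which is needed to release Hedgehog ligands, at 0.1957, and by Me1, the cytosolic malic enzyme, at 0.1997. Disp1 averaged 0.35 ± 0.36 in tip, −0.56 ± 0.16 in stalk and −0.63 ± 0.20 in nonvascular retina, and Me1 averaged −0.31 ± 0.31, −1.32 ± 0.16 and −1.11 ± 0.24. In each of these genes the mean of the tip arrays was above both other means. Every tip array lay above every other array in Disp1, while in Fkbp14 and Me1 tip replicate 6 (−0.52 and −0.86) lay below nonvascular replicate 3 (−0.42 and −0.84), and no test of this is given because they were picked for that likeness.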

How the data were processed

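Expression was measured on 13 two-colour arrays, read with Agilent Feature Extraction 8.5.1.1 per the submitters' processing notes. Per the file headers, the deposited scanner files give mean and background intensity per spot and channel, and a log10 ratio of processed red over green signal that is background-subtracted and dye-normalized. The deposited value table holds linear ratios, which equalled the antilog of that log10 ratio within 0.001 for at least 99.94% of probes on each array. No genome build is given for the arrays in the sources used here, and build GRCm38.p6 applies to the promoter sequences only.

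From the intensities, log2 ratios were computed with normexp background correction (offset 50) and loess in limma 3.58.1, data.table (1.17.8) and R 4.3.3, with control spots at weight 0 and outlier spots missing. Each gene was represented by its brightest probe, which had to be well above background in red on at least 3 of 13 arrays. Gene names were those of RefSeq (22072 probes by their own accession, 142 by another accession, 1093 by the symbol in the description, 17867 unnamed). Group means of all 13 arrays were fitted in 1 limma model, so the groups share their estimate of spread, and the Benjamini-Hochberg adjustment ran over all genes of a comparison. Array medians of red signal above background were 105.2 to 291.6 in tip, 98.1 to 140.8 in stalk and 166.1 to 281.6 in nonvascular retina, with 85% to 95.4% of spots well above background. The number of arrays limits the precision.

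In a simulation of tip minus stalk over 32030 genes with 200 changed, the fit recovered 57% of changes of 0.5 and 98% of changes of 1 on the log2 scale, with 12 false among 167 calls. The genes, the lists and the tests were chosen with earlier results of these data known. The text names the 10 genes with all probes, from each list up to 5 genes called between tip and stalk and up to 3 called in each direction against nonvascular retina, and the 3 genes nearest to P4ha1. Of those named by this rule only some are described, and marker genes were named after their values were seen. Alternatives covered background, signal, normalization, channel, probe choice, filter, groups fitted, array brightness, replicate block and leaving out each array.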

Additional observations from a re-analysis of the deposited data

Results flagged for a closer look

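The highest or lowest array of a group was looked at where its gap to the nearest other array took up most of the range of the group (Dixon's test), which chance alone brings about in about 1 of 20 groups. None of the 24 groups of the 12 probes of the collagen-modifying genes stood out in this way, although tip replicate 6 for P4hb and nonvascular replicate 3 for Serpinh1 lay apart (groups of 3 arrays were not searched). Of 98 groups of the other named genes, 3 did. Kdelr3, the retrieval receptor, was at -2.60 in stalk replicate 3, below the other stalk arrays at -2.33 to -2.28. Vegfa, the main angiogenic growth factor, was at 0.01 in stalk replicate 2, below 0.18 to 0.21. Bnip3, a gene of mitochondrial clearance in hypoxia, was at -4.44 in stalk replicate 3, below -3.93 to -3.89.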

How the results depend on the processing

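P4ha1 was called higher in tip than in stalk in all 24 alternative settings listed under the processing (0.60 to 1.00, adjusted p from 0.00115 to 0.0475), and its other probe, an alternative chosen after seeing the data, ended the call (0.26, adjusted p = 0.326). The number of the 10 genes called was 5 to 8 for tip over nonvascular retina and 4 to 5 for stalk over nonvascular retina, against 7 and 4. Between tip and stalk it was 1, or 2 with P4hb added: without tip replicate 6 (range 1 to 2 over arrays left out) and with the replicate number as a block. Samples of the same replicate number showed little likeness (correlations of same-numbered deviations from -0.144 to 0.082). With so few arrays and no animal in the labels, this cannot tell whether they were paired. That block gave 674 genes called between tip and stalk and 0.87 for P4hb (adjusted p = 0.0442). Over all genes, the 893 called between tip and stalk (471 higher, 422 lower) became 252 with median centring (49 and 203), 225 with array brightness in the model (77 and 148) and 445 to 1607 with 1 array left out, lowest without stalk replicate 1 (445) and stalk replicate 3 (468), then tip replicates 2 (528) and 3 (547), and highest without tip replicate 6 (1607). With the red channel alone the split was 205 and 477, and for tip over nonvascular retina median centring moved it to 2186 higher and 5600 lower, against 3571 and 5384. The cause of these shifts was not tested.

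The number of pairs called, 1, was 0 with the red channel alone and with the other probe of P4ha1 and Plod3, and 0 to 2 with 1 array left out, 2 without tip replicate 3, where Loxl1 minus Loxl2 was also called (-0.41, exact permutation test, adjusted p = 0.0357). With 1 array left out, too few splits remain for a single pair to be called whatever its values, so those losses were fixed in advance. Signs also turned. In tip minus stalk these were Plod1 with median centring (-0.03) and red channel alone (-0.15), Plod2 with brightness (-0.11), Plod3 with red alone (-0.07), Loxl2 with scanner or deposited ratios or median centring (-0.03 each), red alone (-0.20) and the block (-0.01), and Serpinh1 with red alone (0.02) and brightness (0.42). In tip minus nonvascular they were Plod1 with median centring (-0.02) and red alone (-0.03), and Lox with median centring (-0.08) and red alone (-0.13). In stalk minus nonvascular they were P4ha1 with scanner or deposited ratios (0.02 each), red alone (0.12) and brightness (0.01), P4hb with brightness (0.13), Lox with median centring (-0.01), Col4a4 with red alone (0.10) and Ppib, called at 0.76, with the mean of its probes (-0.41, adjusted p = 0.00717). Among pairs, Plod2 minus Plod3 turned with scanner or deposited ratios (0.02 each), red alone (0.11), the mean of probes (0.01) and the other probe (0.07), P4ha1 minus P4hb with the mean of probes (-0.11) and the other probe (-0.44), and Plod1 minus Plod3 with the other probe (0.01). With 1 array left out, signs turned within -0.14 to 0.02 for Lox, -0.12 to 0.09 for Loxl2 and -0.15 to 0.17 for Serpinh1 in tip minus stalk, -0.19 to 0.06 for P4ha1 in stalk minus nonvascular, -0.15 to 0.02 for Plod2 minus Plod3 and -0.21 to 0.00 for Lox minus Loxl2.

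Among the other calls between tip and stalk, leaving out stalk replicate 1 or 3 ended that of Fkbp14, stalk replicate 1 or 2 that of Ltbp4, and any of 7 or more arrays those of Kdelr3, Col2a1, Col15a1, Hif1a and Hk2. Each slide held 1 array, and the second scan day held only tip replicate 5, so a slide block was not run and leaving out that array stands for the scan day. Stalk, tip and nonvascular arrays were scanned one group after the other apart from tip replicate 5, which came last, and the order of scanning cannot be told apart from the groups. Signal limits the Serpinh1 values from above and the Loxl2 values from below.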

Other observations

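A further probe lies outside the rule because its annotation gives no RefSeq identifier and no symbol of the 10 genes: its description names a transcript of the prolyl 4-hydroxylase alpha 2 polypeptide (clone cluster TC1534658). It was lower in tip than in stalk (-0.93 ± 0.19 SE, limma adjusted p = 0.0213 over all probes) and lower in tip than in nonvascular retina (-0.81 ± 0.20, adjusted p = 0.00911), where the P4ha2 probe differed by 0.26 and 1.43. The files place this probe on another chromosome than the P4ha2 gene, and which transcript it binds was not tested. The probe was noticed after the data were seen.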
